A study of Mus musculus with 36 samples.

Results

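Th1 and Th2 cells of the mouse strain C57BL/6J-Ets1-SE-KO, called KO here, were compared with each other to describe which differences between the 2 fates hold in cells that, by the strain's name, lack the super-enhancer of Ets1, and which are smaller than in wild-type cells. The comparison takes 6 of the 36 RNA libraries of the series, 3 labelled Th1 and 3 labelled Th2, chosen by their titles and strain label. The 6 libraries of C57BL/6J cells, called WT, that were cultured to the same fates gave the reference. All 12 were made from naive CD4+ spleen T cells that were isolated with negative-selection beads and activated in vitro on plate-bound anti-CD3. Th1 cells were kept for 6 days with soluble anti-CD28, IL-12 at 10 ng/mL and IL-2 at 1 ng/mL, per the labels' protocols. How the Th2 cells were cultured, where the deletion lies and the age and sex of the mice were not stated in the sources used here. All 12 titles carry B number 1 and T numbers 1 to 3. No label ties the T numbers to different mice or cultures, so a p-value here reflects variation between libraries, possibly technical only. Values of a group's libraries are listed in the order of their T numbers, and a library is named by that number.

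Naive CD4 T cells become Th1 cells under IL-12 and interferon gamma, through the factors STAT4 and T-bet (Tbx21), and then make interferon gamma (Ifng) against intracellular microbes. Under IL-4 they become Th2 cells through STAT6 and GATA3 (Gata3), and make IL-4, IL-5 and IL-13 against parasites and in allergy. T-bet and GATA3 oppose each other's programmes. The Ets1 protein is an ETS transcription factor that binds a core of the letters GGAA and is known as a cofactor of T-bet in Th1 cells.

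The promoter windows of 2 marker genes are printed because they stand at the ends of what follows. Ifng had the largest fate difference of the genes named for KO cells. The fate difference of Il13 did not pass there with all libraries, though it did without KO Th1 library 1. Both are RefSeq windows of GRCm38.p6, from 250 bases before to 50 bases after the start of transcription, read 5′ to 3′ on the gene's strand. Capitals mark the ETS core GGAA, or TTCC where the core lies on the other strand.
Ifng promoter (chr10:118440796-118441095, plus strand): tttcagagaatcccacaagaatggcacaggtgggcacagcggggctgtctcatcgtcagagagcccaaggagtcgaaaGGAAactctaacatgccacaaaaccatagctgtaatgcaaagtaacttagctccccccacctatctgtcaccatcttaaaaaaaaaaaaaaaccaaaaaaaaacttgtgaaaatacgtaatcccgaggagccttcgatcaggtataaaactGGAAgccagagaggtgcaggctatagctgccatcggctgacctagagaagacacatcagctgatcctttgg
Il13 promoter (chr11:53634653-53634952, minus strand): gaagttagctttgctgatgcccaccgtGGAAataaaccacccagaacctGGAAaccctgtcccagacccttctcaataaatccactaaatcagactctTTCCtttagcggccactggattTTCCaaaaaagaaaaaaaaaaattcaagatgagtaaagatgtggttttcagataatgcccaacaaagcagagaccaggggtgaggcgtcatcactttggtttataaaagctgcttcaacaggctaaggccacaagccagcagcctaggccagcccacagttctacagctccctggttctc
The Ifng window held 2 cores and the Il13 window 4, and the windows of Tbx21 (chr11:97115282-97115581, minus strand) and Gata3 (chr2:9878551-9878850, minus strand) held 3 and 2. The core alone is common: 96.0% of all 32851 windows in the table held it on either strand. Among windows of genes higher in KO Th1 cells the share was 94.9% (792 of 1011 genes matched by symbol), and among those of genes higher in KO Th2 cells 94.4% (918 of 1199 matched). The longer ETS motif CGGAAG, searched on both strands and overlapping the core, was in none of the 4 marker windows. It was found in 26.5% of the windows of the Th1 genes, 21.6% of those of the Th2 genes and 32.0% of the windows of all genes tested (9019 of 12616 matched). A match is a description of letters, not a binding site.

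The KO libraries held 7506877 to 9858825 gene counts each, and the 12 libraries 7311614 to 10256407. Levels are CPM, the usual depth-normalised counts, after TMM scaling. Ets1 RNA was at 593, 541 and 615 CPM in KO Th1, 700.1, 726 and 723 in KO Th2, 739, 844 and 808 in WT Th1 and 862, 828 and 822 in WT Th2 cells. The 6 KO libraries all lay below the 6 WT libraries. Gm27162, a lincRNA gene near Ets1, had 0 counts in all 6 KO libraries. In WT it had 140 counts in Th1 (3.93, 5.68 and 5.06 CPM) and 46 in Th2 (1.66, 2.56 and 2.21 CPM). For 2474 genes, levels were higher in Th2 cells over both genotypes (average fate effect, defined below). KO Th1 library 1 was the highest of the 3 KO Th1 libraries in 1311 of them, or 53.0%. The largest such share in another group was 46.2%, in WT Th2 library 3. Compared in pairs over the genes counted, KO Th1 libraries 1 and 3 differed most and libraries 1 and 2 least. That comparison did not single out library 1. Among markers of other cells, genes called in KO were in the B cell, gamma-delta T cell and mast cell lists, and 0 of 7 NK cell and 0 of 8 erythroid and platelet markers passed the filter on low counts. The summed level of 8 B cell markers was 45.7 to 75.1 CPM in KO Th1 and 74.7 to 96.6 in KO Th2 libraries, and 3 of the 7 tested were higher in Th2 (Cd79a, Cd79b and Ighm) and 0 in Th1. The call of Cd79a (-1.14, adjusted p = 0.0439) ended in DESeq2 (0.105) and without each KO library but Th2 library 1 (0.0702 to 0.213). The gamma-delta T cell markers summed to 4.07 to 9.83 CPM in KO Th1, 2.32 to 4.99 in KO Th2, 19.1 to 32.2 in WT Th1 and 6.77 to 12.9 in WT Th2 libraries; of the 4 tested, 1 was higher in Th1 in KO (Tcrg-C2) and 4 in WT. The 1 mast cell marker tested, Hdc, was higher in KO Th2 (means of 0.213 CPM in KO Th1 and 0.945 in KO Th2), while Cpa3, Fcer1a and Ms4a2 were at 0 in every group. The 15 handling stress genes summed to 3748 to 3928 CPM in KO Th1 and 3496 to 3608 in KO Th2 libraries, with 3 called in each direction, and mitochondrial genes took 8.13% to 8.49% and 8.66% to 8.88% of counts. Neither range overlapped between the KO fates. The part of these cells and measures in the differences below was not tested, and in bulk RNA fewer cells of a type and less RNA per cell cannot be told apart.

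In KO cells 1011 of 12616 genes tested were higher in Th1 (8.01%) and 1199 were higher in Th2 (9.5%), by edgeR's quasi-likelihood test at an adjusted p under 0.05. In WT cells 1723 (13.7%) and 1994 (15.8%) were. Counts of called genes in every list, above and below, are to be read beside these shares of all genes. Of the 2210 genes called in KO, 1772 were called in WT in the same direction and 0 in the opposite one; these are 80.2% of the KO calls and 47.7% of the 3717 WT calls. The remaining 1945 WT calls were not called in KO, and 1780 of them had the same sign there. A further 438 genes were called in KO alone, 392 with the same sign in WT. The KO count was 1380 without Th1 library 2 and 1441 without Th2 library 2.

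The difference of the fate effect between genotypes was tested for each gene in the same fit, and 0 of 12616 genes (0%) passed in edgeR, with 1226 at an unadjusted p under 0.05 and a smallest adjusted p of 0.197. DESeq2 called 22 and the edgeR fit without a filter on low counts 213. A smaller value in KO is therefore a description for each gene named below. To set the sizes side by side without choosing genes by 1 genotype, the genes were taken that passed for the average of the KO and WT fate effects, a contrast that does not use the difference between genotypes. These were 4763 genes (37.8%). Their median log2 fold change, taken as positive in the direction of the average effect, was 0.33 in KO and 0.45 in WT. Genes of the opposite sign, 17 in KO and 2 in WT, counted as negative. Of the 4763 genes, 3499 (73.5%) had the smaller value in KO. The ratio of the medians was 74.7% for the 2289 genes higher in Th1 and 72.5% for the 2474 higher in Th2. It was 71.6% for genes with an average absolute effect under 0.3 and 78.8% for those above 2, so the reduction in median size appeared in weak and strong fate genes.

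**Figure D1:**
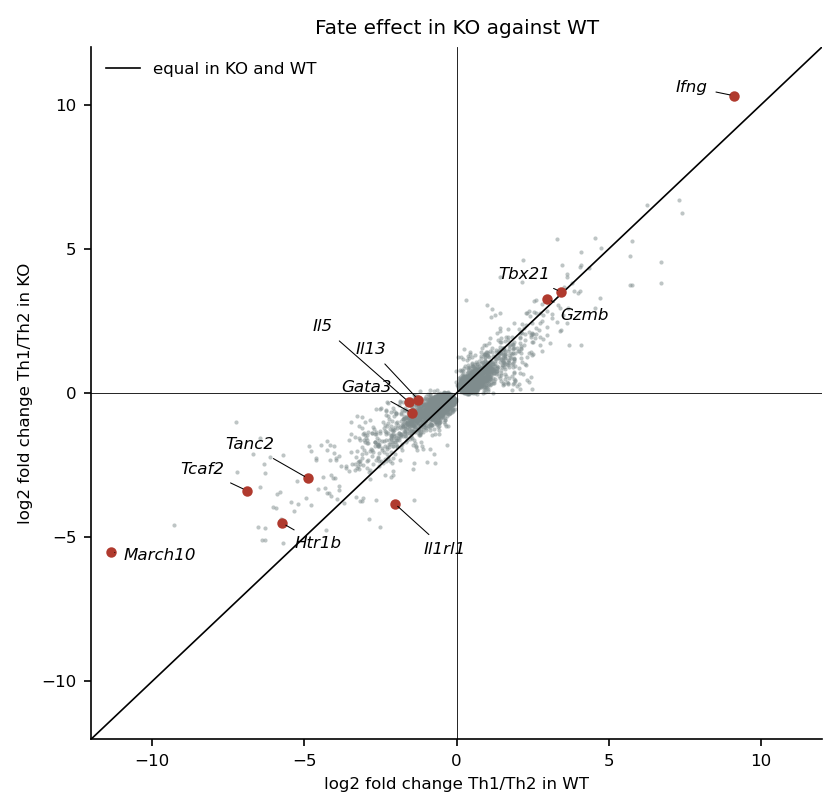
Log2 fold change between Th1 and Th2 cells in WT (x axis) and KO (y axis) for the 4763 genes that passed for the average fate effect, 1 point per gene, with a line of equal effects. Of the points, 3499 lie nearer to 0 on the KO axis than on the WT axis; Il1rl1 is among those farther from 0 in KO.

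The levels of each fate were then compared between genotypes. For the genes on the Th2 side, the median log2 change from WT to KO was 0.11 in Th1 cells and -0.03 in Th2 cells. For the genes on the Th1 side it was -0.08 in Th1 cells and 0.02 in Th2 cells. In both sets the larger median shift was between the Th1 libraries. Without KO Th1 library 1 the ratio of the medians over all such genes was 79.6%, with 69.1% of genes smaller in KO. With any other single library left out the ratio was 66.2% (WT Th2 library 2) to 77.5% (KO Th2 library 1). The share of genes smaller in KO was then 69.5% (KO Th2 library 1) to 76.9% (WT Th2 library 2).

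The Th1 factors and their receptors were mostly kept. From here on, a value with an adjusted p in parentheses is the log2 fold change of Th1 over Th2 cells in KO, negative where Th2 is higher, and the value after WT is the same in WT cells. Tbx21, the gene of T-bet (chromosome 11), was at 43.1, 39.5 and 39.9 CPM in KO Th1 and 6.34, 2.15 and 2.56 in KO Th2 libraries. All 3 Th1 libraries were above all 3 Th2 libraries (log2 fold change 3.50, SE 0.21, adjusted p = 1.05e-09), and the WT log2 fold change was 3.44. Hlx, a homeobox factor that acts with T-bet, was at 66.1, 51.7 and 57.4 CPM in KO Th1 and 12.4, 6.92 and 8.24 in KO Th2 (2.68, adjusted p = 1.69e-07; WT 2.41). Il12rb2, the inducible subunit of the IL-12 receptor, was at 423, 543 and 543 CPM in Th1 and 166, 109.8 and 131 in Th2 (1.89, adjusted p = 5.75e-08; WT 2.09).

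Of 17 Th1 factor and receptor genes tested, 11 were higher in KO Th1 cells and 2 in KO Th2 cells, against 10 and 2 in WT. Their median log2 fold change was 0.75 in KO and 1.00 in WT, beside -0.0029 in KO and -0.0070 in WT over all genes tested. Ifngr1, the binding chain of the interferon gamma receptor, was higher in Th1 (1.23, adjusted p = 3.25e-05). Ifngr2, the signalling chain of the same receptor, was higher in Th2 (-0.99, adjusted p = 1.15e-05). The 2 IL-18 receptor genes had smaller values in KO. Il18rap was at 4.80, 4.58 and 5.12 CPM in KO Th1 against 16.6, 9.89 and 13.8 in WT Th1 and 2.29, 0.835 and 2.21 in KO Th2 libraries; its log2 fold change was 1.45 in KO (adjusted p = 0.00376) and 2.81 in WT. Il18r1 did not pass in KO (0.61, adjusted p = 0.179; WT 1.47), though it did without Th1 library 1 (adjusted p = 0.0399) or without a filter on low counts (5.62e-06). The pass without the filter came with a smaller SE (0.12 in place of 0.30) at nearly the same effect (0.63). Stat4, the transducer of IL-12, passed (0.49, adjusted p = 0.0241; WT 0.88) but not without Th1 library 2 (0.133) or 3 (0.0979), or Th2 library 1 (0.0837) or 2 (0.111).

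**Figure D2:**
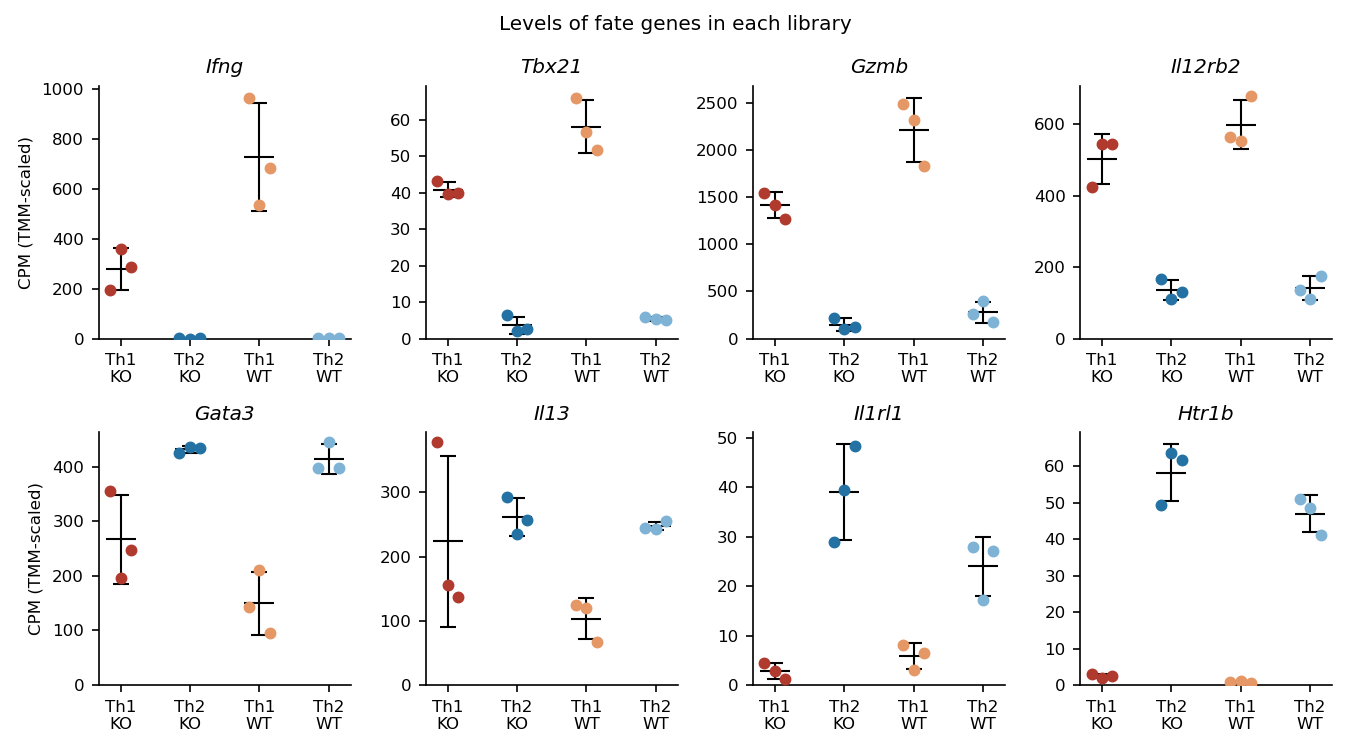
Levels (CPM after TMM scaling, linear axes from 0) of 8 fate genes in the 12 libraries, with 1 point per library in the order of T numbers and the mean ± SD of each group (n = 3). The upper genes are higher in Th1 in both genotypes; in the lower row Il13 overlaps between KO Th1 and KO Th2, where library 1 of KO Th1 is at 378 CPM.

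Ifng (chromosome 10) was at 193, 359 and 286 CPM in KO Th1 libraries and 0.270, 0 and 0.348 in KO Th2 libraries, with 8029 counts in all in Th1 and 5 in Th2. No Th2 library came near a Th1 library, and the call passed (log2 fold change 10.31, adjusted p = 1.88e-11), but 5 counts give no firm fold. WT Th1 libraries were at 964, 535 and 684 CPM, all above the KO Th1 libraries, and WT Th2 libraries at 0.968, 2.42 and 0.552. The fitted difference of the log2 fold changes was 1.20 with an SE of 1.31 (adjusted p = 0.823).

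Of 11 Th1 cytokine and chemokine genes tested, 9 were higher in KO Th1 cells and 1 in KO Th2 cells, against 8 and 0 in WT, with a median of 1.92 in KO and 1.51 in WT. Ccl3, a chemokine that attracts leukocytes, was at 22.6, 14.7 and 11.7 CPM in Th1 and 0.540, 0.477 and 0.232 in Th2 (log2 fold change 5.26, SE 0.41, adjusted p = 4.18e-08). Ccl4, a related chemokine, was higher in Th1 too (3.69, adjusted p = 2.01e-05), and so were Ccl9 (3.52, adjusted p = 0.000517) and Ccl5 (1.36, adjusted p = 0.0062). Fasl, a death ligand, was at 7.26, 8.34 and 6.12 CPM in KO Th1 and 2.43, 1.43 and 1.74 in KO Th2 (1.96, adjusted p = 0.0001). Csf2, the gene of the growth factor GM-CSF, was called in KO (1.92, adjusted p = 0.00162) and missed the threshold in WT (1.10, adjusted p = 0.0578), though it passed there without WT Th1 library 3, and the difference between them had an adjusted p of 0.71. Its KO Th1 libraries were at 21.5, 9.25 and 6.32 CPM, with library 1 highest. Tnf, an inflammatory cytokine, had a log2 fold change of 0.52 in KO (adjusted p = 0.00412) and 0.94 in WT. Tnfsf11, the gene of RANKL, was higher in Th2 (-0.74, adjusted p = 0.0217), a call that ended without Th1 library 1 (0.0816) or 3 (0.0776), or Th2 library 2 (0.0733) or 3 (0.0925).

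Genes of the cytotoxic granule separated the KO fates as they did the WT fates. Gzmb, the protease granzyme B, was at 1552, 1424 and 1274 CPM in KO Th1 and 223, 102 and 121 in KO Th2 libraries (log2 fold change 3.26, SE 0.25, adjusted p = 4.67e-08; WT 2.98). Nkg7, a granule membrane protein, was at 78.0, 86.9 and 69.6 CPM in KO Th1 and 9.58, 3.58 and 3.95 in KO Th2 (3.81, adjusted p = 3.09e-10; WT 3.78). For both genes the lowest Th1 library lay several-fold above the highest Th2 library. Prf1, the pore protein perforin, was at 10.9, 13 and 9.63 CPM in KO Th1, 4.99, 1.79 and 3.13 in KO Th2, 67.4, 45.5 and 49.5 in WT Th1 and 7.88, 15.5 and 5.10 in WT Th2 libraries. Its fate effect was called in KO (1.78, adjusted p = 0.00126) beside 2.52 in WT, although the KO Th1 level was within the range of the WT Th2 libraries. Gzma was higher in Th1 by 1.39 in KO (adjusted p = 8.59e-06) and by 1.39 in WT, at 546, 632 and 754 CPM in KO Th1 and 280.5, 198 and 259 in KO Th2.

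Of the 13 cytotoxic genes tested, 8 were higher in KO Th1 and 1 (Lamp1, a lysosomal membrane protein; -0.28, adjusted p = 0.0162) in KO Th2 cells, against 7 and 2 in WT, with medians of 1.48 and 1.12. The call of Lamp1 ended without Th1 library 3 (0.067) or Th2 library 1 (0.108), and that of Gzmc (1.65, adjusted p = 0.0139) without Th1 library 1 (0.0674) or Th2 library 3 (0.0792). Gzmc lies in a cluster of near-identical protease genes whose reads the counting may split, so its values are uncertain. Among 5 NK-type receptor genes tested, 4 were higher in KO Th1 and 0 in KO Th2 cells. Klrk1, the activating receptor NKG2D, was at 4.57, 5.90 and 6.92 CPM in KO Th1 and 0.270, 0 and 0.232 in KO Th2 (5.03, adjusted p = 3.98e-06; WT 4.74). Klrc1, an NKG2 receptor, was at 4.21, 4.68 and 4.81 CPM in KO Th1 and 15.5, 7.50 and 20.3 in WT Th1 (2.96, adjusted p = 0.000295 in KO; WT 4.56). The defining NK cell markers summed to at most 0.813 CPM in the KO Th1 libraries. The summed gamma-delta T cell markers given above were lower in all KO Th1 than in all WT Th1 libraries, and their part in the levels of these receptors and of Prf1 was not tested.

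Receptors that guide and restrain T cells followed. Of 14 chemokine receptor and homing genes tested, 6 were higher in KO Th1 and 0 in KO Th2 cells, against 6 and 1 in WT. The call of Cxcr3 (0.88, adjusted p = 0.036), a Th1 receptor at 4.45, 2.64 and 3.41 CPM, ended without each of 5 single KO libraries and in DESeq2 (0.119); of the 6 libraries it held only when Th1 library 2 was left out (0.0317). The call of Ccr2 (1.36, adjusted p = 0.0128) ended without Th1 library 1 (0.0521) or Th2 library 2 (0.0739) or 3 (0.0712) and in DESeq2 (0.0683), and that of S1pr1 (0.55, adjusted p = 0.00761) without Th1 library 2 (0.0662). Itgae, the integrin CD103, was higher in Th2 in WT (-1.76, adjusted p = 7.33e-05) and did not pass in KO (-0.30, adjusted p = 0.339). KO Th1 libraries held 14.4, 8.44 and 9.33 CPM of it and WT Th1 libraries 3.19, 2.04 and 1.43, with KO Th2 at 12.9, 11.7 and 14.8.

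Of 13 inhibitory and costimulatory receptors tested, 4 were higher in KO Th1 and 2 in KO Th2 cells, against 5 and 3 in WT. Havcr2, the inhibitory receptor TIM-3 of Th1 cells, was at 21.2, 9.76 and 11.5 CPM in KO Th1 and 2.43, 1.43 and 2.56 in KO Th2 (2.71, adjusted p = 2.57e-05; WT 2.83). Lag3, another inhibitory receptor, was at 85.3, 76.1 and 68.4 CPM in KO Th1 and 47.2, 38.4 and 42.0 in KO Th2 (0.85, adjusted p = 0.000199; WT 0.75). Btla was higher in Th2 (-0.67, adjusted p = 0.000346; WT -0.90), and so was the costimulatory receptor Tnfrsf4, OX40 (-0.29, adjusted p = 0.00595; WT -0.48).

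On the Th2 side the master factor kept a smaller difference. Gata3 (chromosome 2) was at 356, 197 and 248 CPM in KO Th1 and 425, 436 and 434 in KO Th2 libraries. The groups did not overlap, the Th2 libraries were close to each other and the Th1 libraries spread widely (log2 fold change -0.70, SE 0.20, adjusted p = 0.0184). In WT the libraries were at 143, 211 and 95.5 in Th1 and 399, 445 and 398 in Th2 (log2 fold change -1.47, adjusted p = 1.77e-05), so the Th2 ranges of the genotypes overlapped, and 2 of the 3 KO Th1 libraries lay above all WT Th1 libraries. The difference of the effects was 0.77 (SE 0.28, adjusted p = 0.392). The KO call ended without Th1 library 2 (0.118) or 3 (0.0716), without Th2 library 2 (0.0563) or 3 (0.0538), and in DESeq2 (0.104).

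Of 17 Th2 factor and receptor genes tested, 11 were higher in KO Th2 cells and 0 in KO Th1 cells, against 14 and 0 in WT, and the medians were -0.46 and -0.51. Without KO Th1 library 1 the count was 9. Il1rl1, the IL-33 receptor ST2, was at 4.45, 2.75 and 1.20 CPM in KO Th1 and 29.0, 39.5 and 48.4 in KO Th2 libraries (log2 fold change -3.83, SE 0.32, adjusted p = 9.42e-08). It had the larger value in KO: the WT libraries were at 8.08, 2.95 and 6.4 in Th1 and 27.9, 17.2 and 27.0 in Th2 (log2 fold change -2.04; difference -1.80, adjusted p = 0.257). Pparg, a nuclear receptor of lipid metabolism used by Th2 cells, was at 27.5, 19.6 and 21.5 CPM in KO Th1 and 53.4, 55.0 and 62.7 in KO Th2 (-1.33, adjusted p = 6.91e-08; WT -2.07). Bhlhe41, a repressor known in Th2 cells, had a log2 fold change of -1.19 in KO (adjusted p = 0.00145) and -2.73 in WT. Gfi1, a factor for Th2 cell growth, had -0.51 in KO (adjusted p = 0.00224) and -0.50 in WT, and the IL-4 receptor gene Il4ra -0.32 (adjusted p = 0.00465) and -0.36. Stat6, the transducer of IL-4, passed (-0.24, adjusted p = 0.0134) but not without Th1 library 1 (0.0502) or Th2 library 2 (0.0838). The chemokine receptors parted: Ccr4 was higher in Th2 (-0.48, adjusted p = 0.000131; WT -0.62), while Ccr8, at 35.0, 24.6 and 26.6 CPM in KO Th1 and 29.9, 32.4 and 35.9 in KO Th2, overlapped and did not pass (-0.20, adjusted p = 0.501; WT -1.06). Maf, which activates Il4, was at 209.6, 82.0 and 120.3 CPM in KO Th1, with library 1 highest, and did not pass (0.38, adjusted p = 0.277). Without Th1 library 2 it passed as higher in Th1 (0.0337), and so it did without a filter on low counts (0.000125). The pass without the filter came with a smaller SE (0.09 in place of 0.22) at nearly the same effect (0.39).

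The Th2 cytokine genes fell into those that kept their fate difference in KO and those that did not pass. Il13 (chromosome 11) was at 378, 156 and 138 CPM in KO Th1 and 293, 235 and 256 in KO Th2 libraries. Th1 library 1 was above all 3 Th2 libraries while the other Th1 libraries were below them (log2 fold change -0.23, SE 0.26, adjusted p = 0.618). WT libraries were at 125, 119.7 and 66.4 in Th1 and 245, 243 and 255 in Th2 (log2 fold change -1.26, SE 0.27, adjusted p = 0.00151). Il4, the cytokine that drives the fate, was at 26.1, 14.2 and 16.2 CPM in KO Th1 and 27.9, 23.4 and 23.0 in KO Th2 (-0.40, adjusted p = 0.22; WT -1.27). Il5, the eosinophil growth factor, was at 93.1, 31.8 and 25.1 CPM in KO Th1 and 76.6, 54.3 and 52.8 in KO Th2 (-0.31, adjusted p = 0.623; WT -1.57). In both genes, as in Il13, the KO groups overlapped through Th1 library 1. Il10, an inhibitory cytokine, was at 92.3, 44.2 and 39.8 CPM in KO Th1 and 83.5, 67.9 and 77.6 in KO Th2 (-0.38, adjusted p = 0.256; WT -0.84).

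Those 4 results turn on 1 library. Without KO Th1 library 1, an alternative chosen after its levels were seen, all 4 genes passed as higher in KO Th2: Il13 at -0.83 (adjusted p = 0.00131), Il4 at -0.70 (0.0204), Il5 at -1.10 (0.00704) and Il10 at -0.86 (0.000268). None of the 4 passed with any 1 of the other 5 KO libraries left out. With all libraries but no filter on low counts, Il4 (0.0403), Il5 (0.0395) and Il10 (0.0024) passed and Il13 did not. These passes came with smaller SEs, not larger effects. For Il5 the SE was 0.10 in place of 0.36 at an effect of -0.29, and for Il10 0.10 in place of 0.22 at -0.37. The same library was the highest KO Th1 library for Gata3, Maf, Batf and Id2. Batf, an AP-1 factor of Th2 and Th17 cells, was at 265, 182 and 172 CPM in KO Th1 (-0.44, adjusted p = 0.0608) and passed without library 1 (0.00309), with the KO libraries fitted alone (0.0142), with no filter on low counts (1.1e-06) and with the T number as a replicate block (0.0271). Without the filter its SE was 0.08 in place of 0.16 at nearly the same effect (-0.42).

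The remaining Th2 cytokine genes included 4 that were higher in KO Th2 cells with all libraries. Il9, a mast cell growth factor, was at 0, 0.407 and 0.100 CPM in KO Th1 and 3.78, 6.92 and 4.53 in KO Th2 (-4.75, adjusted p = 6.87e-06; WT -4.27), with 5 counts in all in KO Th1. Areg, the growth factor amphiregulin, was at 0.936, 0.508 and 1.60 CPM in KO Th1 and 6.07, 7.16 and 7.55 in KO Th2 (-2.75, adjusted p = 3.31e-06; WT -2.86). Il3 was at 1.52, 1.32 and 0.602 CPM in KO Th1 and 4.05, 3.58 and 3.72 in KO Th2 (-1.72, adjusted p = 0.00688; WT -1.38). For these 3 genes no KO Th1 library reached a KO Th2 library. Il24 passed by a small margin (-0.37, adjusted p = 0.0233; WT -0.36) and not without Th1 library 1 (0.0877) or Th2 library 2 (0.0602) or 3 (0.124). Over the 9 cytokine genes tested, 4 were higher in KO Th2 and 0 in KO Th1, against 8 and 0 in WT, and 7 and 0 in KO without Th1 library 1. The median was -0.38 in KO and -1.27 in WT.

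**Figure D3:**
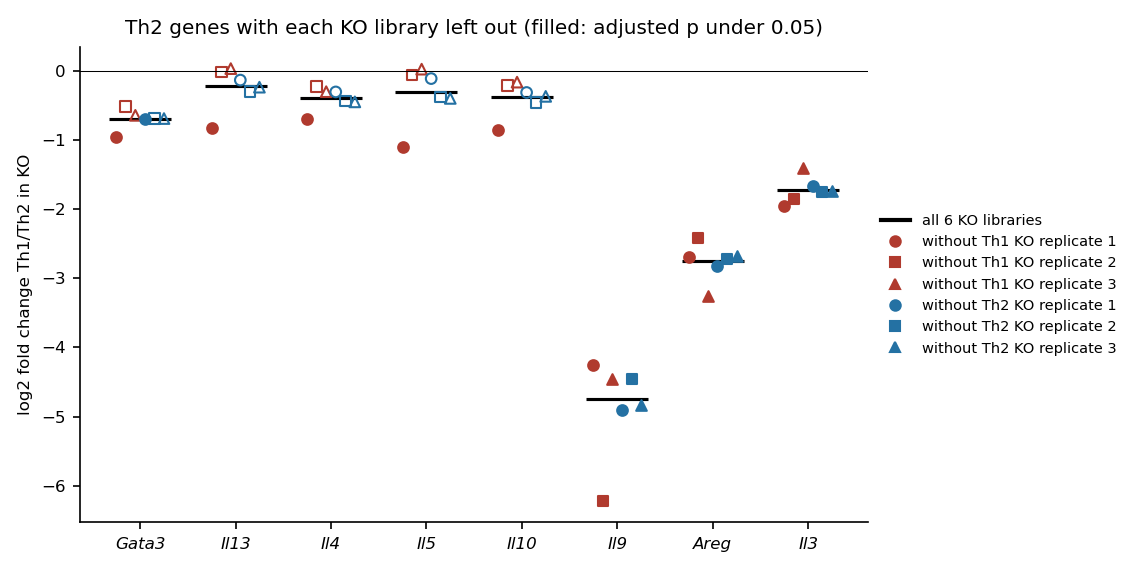
Log2 fold change between KO Th1 and KO Th2 cells for Gata3 and 7 Th2 cytokine genes, with all 6 KO libraries (bar) and with each of them left out in turn (symbols, filled where the adjusted p is under 0.05). Il13, Il4, Il5 and Il10 are filled only without Th1 library 1, whereas Il9, Areg and Il3 are filled in every case.

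By the rule for naming (10 CPM or more in the higher group, no overlap between libraries), the largest differences on the Th2 side belonged to genes outside the classical cytokines. The genes named were March10, Spx, Htr1b, Il1rl1, Nrgn, Sema3e, Tcaf2, Adamtsl3, Tanc2 and Plcd4. The cytokine gene Il9 (-4.75) was left out by the limit of 10 CPM, with a mean of 5.08 in KO Th2. March10, a ubiquitin ligase gene, was at 42.0, 45.7 and 41.1 CPM in KO Th2 and 2.69, 0.203 and 0.100 in KO Th1 (log2 fold change -5.52, SE 0.37, adjusted p = 2.6e-08). In WT Th1 cells it had 0 counts, a level at least 348-fold lower than in WT Th2 against a floor of 3 counts over the group. Spx, the gene of the peptide hormone spexin, showed the same: 13.2, 11 and 15.3 CPM in KO Th2, 1.64, 0.102 and 0 in KO Th1 (-4.59, adjusted p = 1.29e-05) and 0 counts in WT Th1, at least 83.0-fold lower than in WT Th2. In both genes KO Th1 library 1 held most of the KO Th1 counts.

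Htr1b, a serotonin receptor gene, was at 3.04, 2.03 and 2.61 CPM in KO Th1 and 49.4, 63.6 and 61.8 in KO Th2 (-4.51, adjusted p = 1.02e-12; WT -5.72). Its KO Th1 libraries were close together, and all 3 were above the WT Th1 libraries at 0.850, 1.14 and 0.668. Tanc2, a scaffold protein gene of synapses, was at 109, 18 and 26.5 CPM in KO Th1 and 335, 416 and 426 in KO Th2 (-2.96, adjusted p = 1.49e-05; WT -4.87). Here library 1 of KO Th1 was several-fold above libraries 2 and 3, yet below every Th2 library. Tcaf2, a partner of TRP ion channels, was at 3.75, 1.32 and 0.802 CPM in KO Th1 and 18.8, 20.2 and 20.4 in KO Th2 (-3.38, adjusted p = 1.33e-07; WT -6.89). Adamtsl3, a secreted matrix protein, was at 9.95, 2.54 and 6.52 CPM in KO Th1 and 54.8, 63.9 and 68.3 in KO Th2 (-3.32, adjusted p = 1.14e-08; WT -4.55). Nrgn, the calmodulin-binding protein neurogranin, had -3.65 in KO and -4.95 in WT, Sema3e, a semaphorin, -3.47 and -4.17, and Plcd4, a phospholipase C, -2.93 and -4.07. All 10 were also called in WT, as were 979 of the 1199 genes higher in KO Th2. Of the 10, 9, all but Il1rl1, had the smaller value in KO, beside 784 (65.4%) of those 1199. WT Th1 libraries held 0 counts of March10 and Spx and 5 in all of Tcaf2, so their WT folds are not firm. Sema3e and Plcd4 had 18 counts each there and Nrgn 20, so their WT folds rest on few counts too.

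On the Th1 side the same rule named Ifng, Dclk1, Ccl3, Il23r, Serpinb5, Mt3, Casr, Nkg7, Filip1 and Tbx21. Dclk1, a microtubule-associated kinase, was at 11.9, 21.8 and 25.5 CPM in KO Th1 and 0, 0.119 and 0.581 in KO Th2 (log2 fold change 6.26, SE 0.50, adjusted p = 5.96e-08; WT 7.40). Il23r, the receptor subunit for IL-23, was at 11.5, 16.4 and 19.4 CPM in KO Th1 and 1.35, 0.477 and 0 in KO Th2 (4.74, adjusted p = 8.36e-07; WT 5.68). Casr, the calcium-sensing receptor, was at 10.9, 17.6 and 20.6 CPM in KO Th1 and 1.48, 0.596 and 0.929 in KO Th2 (4.04, adjusted p = 1.78e-06; WT 3.62). Mt3, a metallothionein, was at 15.3, 12.4 and 8.12 CPM in KO Th1 and 0.675, 0.716 and 0.232 in KO Th2 (4.44, adjusted p = 1.3e-07; WT 4.08). Filip1, a filamin-interacting protein, had 3.54 in KO and 3.84 in WT. Serpinb5, a serpin, was at 4.21, 17.4 and 16.4 CPM in KO Th1, with library 1 lowest (4.55, adjusted p = 0.000129; WT 6.73). All 10 were called in WT as well, as were 793 of the 1011 genes higher in KO Th1. The smaller value was in KO for 5 (Dclk1, Ccl3, Il23r, Serpinb5 and Filip1) and in WT for 5, Ifng among them. Over those 1011 genes it was in KO for 549 (54.3%). Several of these folds are not firm. Th2 counts in all were 5 in KO and 28 in WT for Ifng and 6 and 4 for Dclk1. They were 14 and 6 for Il23r and 13 and 4 for Serpinb5.

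Genes that respond to interferon gamma separated the KO fates. Iigp1, an interferon-induced GTPase, was at 5.38, 5.79 and 5.62 CPM in KO Th1 and 0.135, 0.119 and 0.465 in KO Th2 (4.43, adjusted p = 8.81e-07; WT 3.46). Gbp2, a guanylate-binding protein, was at 168, 225 and 231 CPM in KO Th1 and 75.7, 70.6 and 70.8 in KO Th2 (1.52, adjusted p = 2.71e-07; WT 1.71), and Gbp7 had 2.26 in KO and 2.62 in WT. Nlrc5, which drives MHC class I expression, had 1.01 (adjusted p = 0.00105) and 1.60. Of 18 such genes tested, 9 were higher in KO Th1 and 1 in KO Th2 cells, against 9 and 4 in WT, and the medians were 0.48 in both genotypes. The GTPase genes have near-identical copies, so their counts are uncertain. The gene higher in KO Th2 was Socs1, a feedback inhibitor of cytokine receptors (-0.40, adjusted p = 0.00886), a call that ended without Th1 library 2 (0.0557). Of 11 type I interferon response genes tested, 0 were higher in KO Th1 and 2 in KO Th2 cells, against 2 and 1 in WT.

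The common gamma chain and STAT5 genes, which serve IL-2, IL-4 and related cytokines, lay mostly on the Th2 side in both genotypes. Of 18 tested, 12 were higher in KO Th2 and 1 in KO Th1 cells, the same counts as in WT, with medians of -0.31 and -0.30. Socs2, a STAT5 target, was at 54.7, 59.1 and 71.8 CPM in KO Th1 and 97.5, 100.4 and 103 in KO Th2 (-0.70, adjusted p = 0.000105; WT -0.80). Socs3 had -0.65 in KO (adjusted p = 8.59e-06) and -0.64 in WT, the shared receptor chain Il2rg -0.41 (0.00101) and -0.38, and Stat5a -0.37 (0.00414) and -0.53. Il7r, the IL-7 receptor, was the 1 higher in Th1, at 152, 131 and 143 CPM in KO Th1 and 107, 107 and 112 in KO Th2 (0.39, adjusted p = 0.00233; WT 0.28).

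Genes of other helper fates were called in both directions. Of 13 Tfh and Th17 genes tested, 1 was higher in KO Th1 (Il23r, above) and 6 in KO Th2 cells, against 3 and 5 in WT. The KO shares were 7.69% and 46.2%, beside 8.01% and 9.5% of all genes. Ahr, a ligand-activated factor of Th17 cells, was at 13.2, 9.35 and 13.4 CPM in KO Th1 and 46.1, 46.3 and 60.5 in KO Th2 (-2.09, adjusted p = 2.19e-05; WT -2.97). Bcl6, the Tfh repressor, was called in KO (-1.15, adjusted p = 0.00518) and not in WT (-0.28, adjusted p = 0.54), and the difference did not pass (adjusted p = 0.51). Its KO Th2 libraries were at 3.51, 3.46 and 4.30 CPM and its KO Th1 libraries at 1.76, 1.42 and 1.91. Of 11 Treg genes tested, 1 was higher in KO Th1 (9.09%, near the 8.01% of all genes) and 3 in KO Th2 cells (27.3%), against 2 and 4 in WT. Foxp3, which defines the Treg fate, did not pass the filter on low counts. Nrp1, neuropilin 1, was at 13, 11.2 and 11.8 CPM in KO Th1 and 44.7, 51.2 and 52.6 in KO Th2 (-2.05, adjusted p = 1.2e-09; WT -2.17), and Entpd1, the ectonucleotidase CD39, at 48.3, 32.0 and 34 CPM in KO Th1 and 14.7, 9.54 and 8.94 in KO Th2 (1.79, adjusted p = 2.8e-06; WT 1.60).

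**Figure D4:**
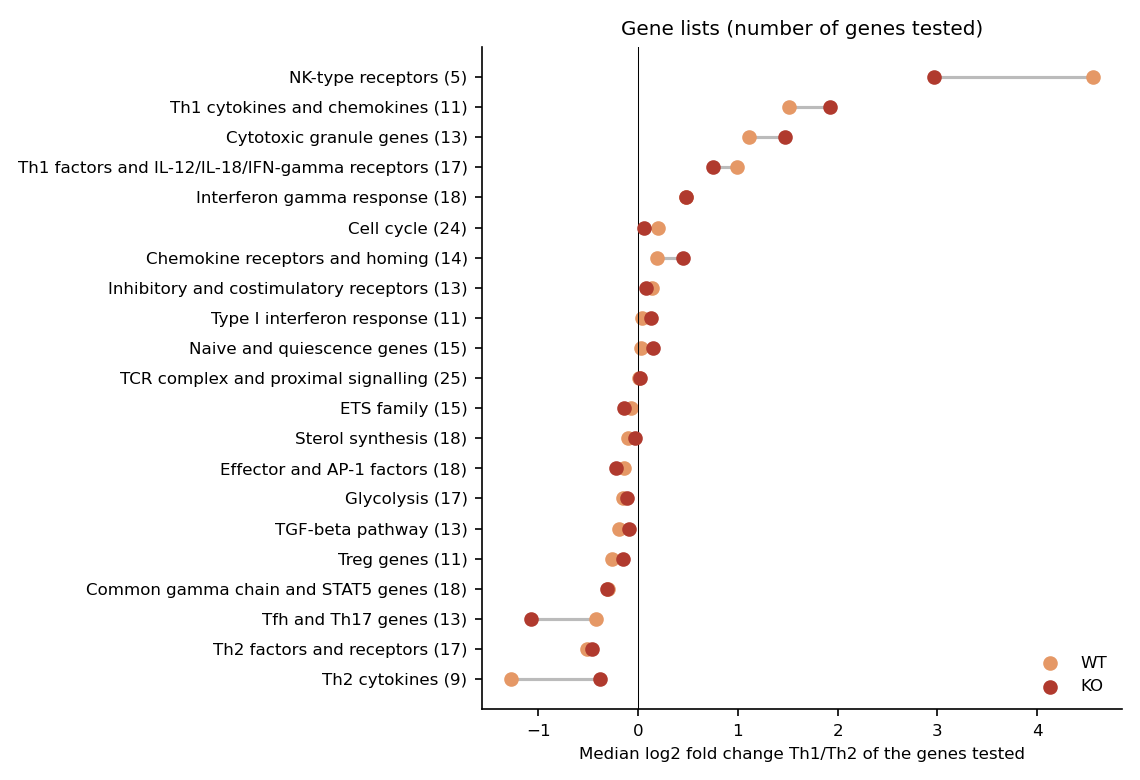
Median log2 fold change between Th1 and Th2 cells over the tested genes of 21 lists, in KO and WT, with the number of genes tested in parentheses; positive values are higher in Th1. The Th2 cytokine list moves from -1.27 in WT to -0.38 in KO, and the medians of the STAT5 and interferon gamma response lists coincide to within the size of the symbols.

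Of 25 T cell receptor signalling genes tested, 3 were higher in KO Th1 and 3 in KO Th2 cells, or 12% each beside 8.01% and 9.5% of all genes. In WT 6 and 5 were, or 24% and 20% beside 13.7% and 15.8%. Cblb, a ubiquitin ligase that restrains the receptor, was at 74.1, 122 and 109 CPM in KO Th1, 48.3, 60.7 and 52.5 in KO Th2 and 175, 152 and 189.9 in WT Th1 (0.92, adjusted p = 9.74e-05 in KO; WT 1.74). Tec, a receptor-proximal kinase, was higher in KO Th2 (-0.73, adjusted p = 5.52e-06; WT -1.10). Cd247, the zeta chain, passed (0.22, adjusted p = 0.0315) but not without Th1 library 1 (0.122) or 2 (0.0771), or Th2 library 2 (0.137) or 3 (0.132).

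In the lists that follow, the counts are to be read beside the same shares of all genes, 8.01% higher in Th1 and 9.5% higher in Th2 in KO and 13.7% and 15.8% in WT. Of 18 effector and AP-1 factors tested, 3 were higher in KO Th1 and 4 in KO Th2 cells, against 3 and 6 in WT. Prdm1, the terminal differentiation factor Blimp-1, was at 47.1, 25 and 32.1 CPM in KO Th1 and 19.4, 10.8 and 12.7 in KO Th2 (1.28, adjusted p = 0.00151; WT 1.59). Egr2, an early growth response factor, was higher in KO Th2 (-0.94, adjusted p = 0.00182; WT -0.87), and Myc, a transcription factor of cell growth, in KO Th1 (0.37, adjusted p = 0.00604; WT 0.81). Of 15 naive and quiescence genes tested, 4 were higher in KO Th1 and 1 in KO Th2 cells, as in WT. Of 13 TGF-beta pathway genes, 1 was higher in KO Th1 and 2 in KO Th2 cells, against 3 and 5 in WT; the receptor Tgfbr1 had -0.47 in KO (adjusted p = 0.00367) and -0.96 in WT. Cell cycle genes had 3 of 24 higher in KO Th1 and 0 in KO Th2 (6 and 1 in WT), glycolysis genes 1 and 3 of 17 (1 and 6 in WT) and sterol synthesis genes 1 and 3 of 18 (0 and 5 in WT). Their KO shares, 12.5% and 0% of cell cycle, 5.88% and 17.6% of glycolysis and 5.56% and 16.7% of sterol genes, come from at most 3 genes each.

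Within the ETS family, Ets1 itself was lower in KO Th1 than in KO Th2 cells (log2 fold change -0.30, SE 0.06, adjusted p = 0.00262), and in WT the fates did not pass (-0.07, adjusted p = 0.425). The difference between genotypes was -0.22 (SE 0.09) with an adjusted p of 0.428. Of 15 ETS genes tested, 3 were higher in KO Th1 and 4 in KO Th2 cells, against 4 and 2 in WT. Fli1, the neighbour of Ets1, was at 58.6, 57.5 and 63.0 CPM in KO Th1 and 40.6, 37.7 and 40.2 in KO Th2 (0.60, adjusted p = 5.04e-05; WT 0.68). Etv5, a factor downstream of ERK signals, was at 27.9, 20.5 and 27.0 CPM in KO Th1 and 11.2, 11.4 and 9.52 in KO Th2 (1.23, adjusted p = 3.57e-05; WT 1.89). Etv3 was higher in KO Th2 (-0.61, adjusted p = 0.000154; WT -0.66), as was Elk4 (-0.48, adjusted p = 0.0013; WT -0.33).

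Genes with the smallest p for the difference between genotypes are described here as chosen by that p, with no test of their own. None passed after adjustment in edgeR with all libraries and the filter on low counts. Which of them are among the 22 genes of DESeq2 or the 213 without the filter is not given here. They were taken from genes that passed for the average fate effect and reached 10 CPM in a group. The 10 with a smaller effect in KO were Ubash3b, Ppp2r3a, Fam198a, Ccdc33, Tcaf2, Bcl2l14, Epcam, Pparg, Tspan6 and Snx2. Ubash3b, a phosphatase that dampens signals of the T cell receptor, was at 50.3, 56.1 and 56.0 CPM in KO Th1 and 50.5, 55.0 and 57.2 in WT Th1, while Th2 libraries were at 40.9, 38.3 and 35.3 in KO and 23.2, 23.3 and 23.9 in WT. The Th1 levels overlapped between genotypes and the Th2 levels did not; the fate effect was 0.51 in KO and 1.21 in WT (unadjusted p = 2.04e-05, adjusted 0.197).

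The other 9 were Th2-side genes in WT, and in all 9 every KO Th1 library was above every WT Th1 library. Choosing genes by the p for the difference favours such a separation. The share of all genes that separate in this way is not given here. Ppp2r3a, a regulatory subunit of the phosphatase PP2A, was at 119.7, 74.4 and 93.5 CPM in KO Th1 and 41.5, 43.8 and 40.8 in WT Th1 (-0.68 in KO, -1.52 in WT). Bcl2l14, of the Bcl2 family, was at 25.2, 24.2 and 26.2 CPM in KO Th1 and 17, 15.6 and 17.6 in WT Th1, and its KO libraries overlapped with KO Th2 at 23.6, 22.1 and 26.2 (0.07, adjusted p = 0.744). Epcam, an adhesion molecule, was at 17.3, 12 and 10.7 CPM in KO Th1 and 4.78, 5.0 and 4.11 in WT Th1 (-0.72 in KO, -1.99 in WT). Tspan6, a tetraspanin, had -1.36 in KO and -2.32 in WT, and Snx2, a sorting nexin, did not pass in KO (-0.17, adjusted p = 0.0761; WT -0.58). Fam198a had -1.42 and -2.63, and Ccdc33 -1.53 and -3.32.

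Under the same 2 conditions, the 5 genes with the smallest p and a larger effect in KO were Il1rl1, Ctss, Cd24a, Rasa4 and Gm22973. Ctss, the protease cathepsin S, was at 70.6, 68.3 and 64.9 CPM in KO Th1 and 50.5, 52.7 and 52.4 in KO Th2 (0.39, adjusted p = 0.00216; WT -0.00). Cd24a, a surface glycoprotein, was at 57.4, 45.3 and 36.7 CPM in KO Th1 and 24.4, 14.7 and 18.9 in KO Th2 (1.27, adjusted p = 3.25e-05; WT 0.49). Rasa4, a Ras inhibitor, had 0.77 in KO (adjusted p = 0.00124) and 0.14 in WT. The unadjusted p of these 5 was 0.00103 or more. Of the 49 genes of any level with an unadjusted p under 0.001 for the difference, 40 passed for the average fate effect. All 40 were nearer to 0 in KO, beside 73.5% of all 4763 genes that passed for the average. The other 9 had opposite signs in KO and WT, which a large difference with a small average tends to bring by itself. None of the 49 passed after adjustment in edgeR with all libraries and the filter on low counts.

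**Figure D5:**
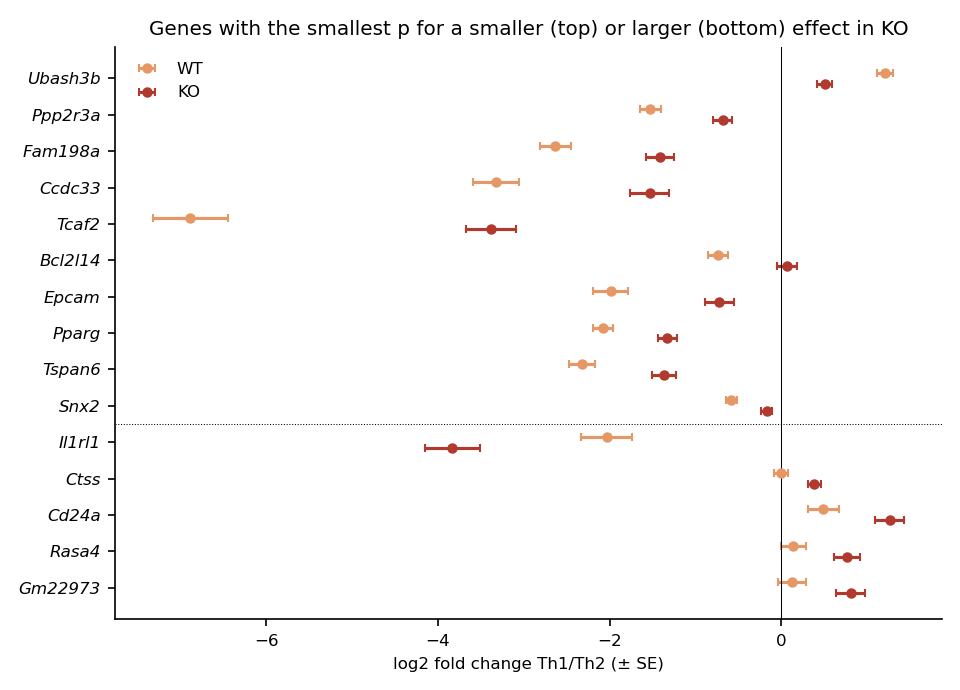
Log2 fold change between Th1 and Th2 cells in KO and WT, with SE bars, among genes that passed for the average fate effect and reached 10 CPM in a group: the 10 with the smallest p for a smaller effect in KO (above the dotted line) and the 5 for a larger one (below). Tcaf2 moves from -6.89 in WT, where Th1 libraries held 5 counts in all, to -3.38 in KO. Il1rl1 moves from -2.04 to -3.83. No difference passed after adjustment in edgeR with all libraries and the filter on low counts.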

How the data were processed

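RNA was sequenced from 36 libraries, and the 12 Th1 and Th2 libraries of the first cultures were used. The authors deposited a table of raw counts for each library (reads or pairs per gene), aligned with STAR 2.5.0a to GRCm38 per the submitters' processing notes; no source used here names the annotation release. Gene rows of the strand column holding 94.0% to 95.0% of stranded gene counts were used. Summary lines that name no gene (65.5% to 72.9% of reads or pairs tabulated) were left out. Of 45706 identifiers, 45143 matched GENCODE M21 for symbols and coordinates.

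Levels are CPM after TMM scaling. One fit of 4 group means was made with edgeR 4.0.16 in R 4.3.3 (filterByExpr, quasi-likelihood test, Benjamini-Hochberg over 12616 genes, threshold 0.05), so the 4 groups share 1 estimate of the spread. Contrasts were Th1 minus Th2 in KO and in WT, their difference and their average, and every adjusted p is from this test unless DESeq2 (1.42.0) is named. SE is the absolute log2 fold change over the square root of the F statistic. Floors are 3 counts and describe counting error alone, as reads were not tagged with molecular identifiers in these tables. No 2 libraries of a group were identical or agreed within sampling noise. The scripts were tested on simulated data.

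The members and gene lists were chosen with earlier results of these data known, so lists are described by counts and medians without a test. Named genes were the 4 markers, members of the lists, the 10 protein-coding genes with the largest log2 fold change in each direction among KO calls (mean of 10 CPM or more in the higher group, no overlap of libraries), and, among genes called for the average effect with 10 CPM or more in a group, the 10 with the smallest p for a smaller effect in KO and the 5 for a larger one, besides Ets1 and Gm27162. Some list members are counted in their lists and not reported here by name. Promoter windows came from RefSeq. Alternatives were DESeq2, its size factors in edgeR, no filter on low counts, the T number as a block, counts without strand, each genotype fitted alone and leaving out each library. Leaving out KO Th1 library 1 for the Th2 cytokines and lists was chosen after the data were examined. The 8 libraries without a clear group and the other 16 libraries were not analysed here.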

Additional observations from a re-analysis of the deposited data

How the results depend on the processing

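With 1 library left out, the number of genes called in KO ranged from 1380 to 2413, in WT from 2787 to 3809, and for the average effect from 4223 to 4799; the KO total fell by over 1.5 times without Th1 KO library 2 (1380) and Th2 KO library 2 (1441). In the other alternatives run the KO total was 1881 with DESeq2, 2198 with its size factors in edgeR, 2348 without a filter on low counts and 2528 with the KO libraries alone, all within 1.5 times of 2210. The difference between genotypes gave 0 genes in edgeR, 22 in DESeq2 and 213 without a filter, and 0 to 3 with 1 library left out (3 without Th1 KO library 2, 2 without Th1 WT library 2); the cause was not tested. The share of genes with the smaller effect in KO, 73.5%, was 87.9% among genes called in WT, 60.3% among genes called in KO, 74.8% with DESeq2, and 69.1% to 76.9% with 1 library left out. The first 2 of these choose genes by 1 genotype, which favours the larger effect there. Of 133 named genes, 120 were called in KO, of which 100 kept the call under every alternative run and 20 lost it under at least 1; of the 13 not called, 7 were called under at least 1. No named gene changed sign while called. Many of the named genes were chosen as KO calls with large effects, so these counts do not describe all 2210 calls.

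With the T number as a replicate block the counts were 2302 in KO, 3845 in WT, 0 for the difference and 4859 for the average effect, and 73.5% of genes had the smaller effect in KO. Deviations of KO Th1 and Th2 libraries with the same T number correlated at -0.0043 to 0.0995, and 2 of 3 correlated best with their own number; for WT Th1 and Th2 the values were 0.0659 to 0.236, with 3 of 3 best with their own number. Not every pair was above 0.1 in either genotype, so the numbers are not treated as pairing the samples. Depth limits genes near 0 in 1 fate: 3 counts correspond to 0.304 to 0.400 CPM in a KO library.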

Other observations

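Of the 49 genes with an unadjusted p under 0.001 for the difference of the fate effect between genotypes, 9 lie on chromosome 9, the chromosome of Ets1. That is 18.4%, beside 5.64% of all 12616 genes tested (711 genes). At an unadjusted p under 0.01 the share was 6.83% (22 of 322 genes) and under 0.05 it was 5.22% (64 of 1226). The 9 genes were Ubash3b, Sln, Peak1, Ccdc33, Mei4, Ppp2r3a, Pik3r4, Gm24044 and Fam198a, singled out after their values were seen. None of them passed after adjustment in edgeR with all libraries and the filter on low counts, and the relation to position was not tested.

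The libraries of a fate did not spread alike. For the 2474 genes on the Th2 side, KO Th1 library 1 was the highest of its group in 53.0%, while the largest share of any library in the other 3 groups was 46.2%. For the 2289 genes on the Th1 side, KO Th2 library 1 was the highest of its group in 42.2%, WT Th1 library 1 in 47.5% and WT Th2 library 2 in 47.4%. The labels give no reason for these differences.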
